A study of Rattus norvegicus with 18 samples.

Results

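The matrix metalloproteinase (MMP) genes Mmp2, Mmp7, Mmp8, Mmp9, Mmp12, Mmp13, Mmp14, and Mmp19 and the tissue inhibitor of metalloproteinases (TIMP) genes Timp1 and Timp3 were examined in rat lung RNA-seq data. They were chosen by gene symbol, with earlier results of these data known, and are 10 of the 22081 genes in the deposited tables. Counts of called genes among them, set beside all genes, are therefore a description only. The samples were 18 male F344 rats, 3 control and 3 MWCNT-treated rats at each of Year 0.5 (week 26), Year 1 (week 52), and Year 2. Treated rats received MWNT-7, a rigid, needle-like multiwalled carbon nanotube (MWCNT), by intratracheal instillation at 0.5 mg/kg body weight every 4 weeks from 9 weeks of age, and control rats received the vehicle, saline with Tween 80, on the same schedule. Control and treated rats of a time point were therefore of the same age, and age and length of exposure increased together. RNA was taken from accessory lobe tissue without visible tumors, and the values describe this tissue with all of its cell types. The study states that the samples may still have held focal lesions, such as hyperplasias and early adenomatous changes. In such bulk tissue, fewer cells of a type and less RNA per cell cannot be told apart.

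MMPs are zinc-dependent endopeptidases that are made as inactive proenzymes and cut components of the extracellular matrix and many cell-surface and signaling proteins. TIMPs bind the active site of MMPs and block it. In the lung, MMPs take part in alveolar remodeling, macrophage migration, and the shedding of signaling proteins.

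The genes lie on several chromosomes of the Rnor_6.0 build used for the deposited files. Mmp13 (chr8:5522739-5533018), Mmp12 (chr8:5606592-5616493), Mmp8 (chr8:5768811-5778702), and Mmp7 (chr8:5893249-5901049) belong to 1 cluster on chromosome 8. Mmp2 is at chr19:15542765-15570611, Mmp9 at chr3:161413298-161421520, Mmp14 at chr15:33074441-33083655, and Mmp19 at chr7:3216497-3224201. Timp1 is at chrX:1364786-1369384 and Timp3 at chr7:23544215-23594133.

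The 250 bases upstream of the transcription start of the 4 members in the cluster are shown because these neighboring genes had very different levels and responses, and that of Timp1 because it was the inhibitor that rose. The sequences are from RefSeq on the GRCr8 build, whose coordinates differ from those of Rnor_6.0, and 6 of the 10 genes had an entry (these 5 and Timp3). All are written 5′ to 3′ on the strand of the gene. Capitals mark matches, on either strand, to the AP-1 motif TGANTCA, the PEA3 motif AGGAA, and the TATA box TATAAA, which are known elements of many MMP promoters.
Mmp12 (chr8:12866402-12866651, plus strand): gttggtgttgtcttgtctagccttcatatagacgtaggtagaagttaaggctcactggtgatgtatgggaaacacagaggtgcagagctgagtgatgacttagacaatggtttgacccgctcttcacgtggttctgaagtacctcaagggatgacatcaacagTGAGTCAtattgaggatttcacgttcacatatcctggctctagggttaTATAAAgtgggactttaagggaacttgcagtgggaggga
Mmp7 (chr8:13132793-13133042, plus strand): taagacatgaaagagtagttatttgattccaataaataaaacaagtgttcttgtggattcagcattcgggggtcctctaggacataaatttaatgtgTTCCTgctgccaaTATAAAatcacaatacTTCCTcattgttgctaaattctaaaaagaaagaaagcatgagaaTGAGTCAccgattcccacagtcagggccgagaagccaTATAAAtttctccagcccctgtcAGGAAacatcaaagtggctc
Mmp8 (chr8:13008640-13008889, plus strand): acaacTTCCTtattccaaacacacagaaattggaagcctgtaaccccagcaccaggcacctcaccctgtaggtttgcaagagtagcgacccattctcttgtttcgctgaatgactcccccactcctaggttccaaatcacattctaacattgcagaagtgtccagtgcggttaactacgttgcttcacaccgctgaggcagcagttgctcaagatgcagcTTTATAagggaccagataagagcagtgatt
Mmp13 (chr8:12782579-12782828, plus strand): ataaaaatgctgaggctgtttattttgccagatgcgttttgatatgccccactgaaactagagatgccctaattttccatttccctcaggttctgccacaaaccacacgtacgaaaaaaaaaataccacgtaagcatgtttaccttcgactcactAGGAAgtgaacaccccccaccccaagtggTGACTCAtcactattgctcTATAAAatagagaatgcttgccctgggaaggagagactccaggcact
Timp1 (chrX:3771123-3771372, minus strand): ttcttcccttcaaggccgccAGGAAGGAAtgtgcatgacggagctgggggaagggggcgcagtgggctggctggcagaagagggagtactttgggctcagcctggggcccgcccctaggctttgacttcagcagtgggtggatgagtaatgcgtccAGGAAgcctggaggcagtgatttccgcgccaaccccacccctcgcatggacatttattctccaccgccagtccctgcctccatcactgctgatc

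An AP-1 match was found 87 bases before the start of Mmp12, 80 bases before that of Mmp7, and 66 bases before that of Mmp13. No exact match was found in the windows of Mmp8, Timp1, and Timp3. Near matches, such as tgagtaa in the Timp1 window and tgactcc in the Mmp8 window, were not counted. A TATA match was found in all 4 members of the cluster and in neither inhibitor. It lay 39 bases before the start in Mmp12 and 30 bases before it in Mmp8. In Mmp8 the match was on the opposite strand (TTTATA), and in the other members it was on the strand of the gene. Of 33469 promoter windows of the same length, 6.34% held the AP-1 motif, 12.9% the TATA motif, and 61.0% the PEA3 motif. These matches describe the sequence and are not evidence of binding.

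The summed depth per rat ranged from 13297643 to 17868851 counts in controls and from 14661589 to 21130757 in MWCNT-treated rats. Levels are given as TPM, read counts scaled to transcript length and to the same total in each rat, which can be compared between genes. Changes are log2 fold changes from edgeR on the counts, with their standard error (SE) and the false discovery rate (FDR) over all genes tested. A gene was called when its FDR was below 0.05 and its absolute log2 fold change above 1, the criterion of the study for a differentially expressed gene (DEG). The labels do not say more about the 3 rats of a group than that they are separate samples, and the methods of the study describe them as separate animals.

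At Year 0.5, 4 of the 10 genes were called, all higher in MWCNT-treated rats, against 9.1% of all 14315 genes tested (6.07% called higher). At Year 1 and at Year 2, 6 of the 10 were called, all higher, against 10.2% (6.13% higher) and 16.4% (8.17% higher) of genes. Mmp7, Mmp12, Mmp14, and Mmp19 were called at all 3 time points, and Mmp9 and Timp1 at Year 1 and Year 2. Mmp2, Mmp8, and Timp3 were called at none, and Mmp13 had too few counts to be tested. Mmp7 passed the filter on low counts only through the treated rats and so had to differ, and without it the counts of called genes were 3, 5, and 5 of 9. The median log2 fold change of the 9 tested genes was 0.69 at Year 0.5, 1.12 at Year 1, and 1.91 at Year 2, beside medians of -0.02, 0.00, and -0.01 over all tested genes. On the normalized count scale, the treated rats lay above the controls without overlap for 5, 7, and 7 of the genes at the 3 time points (4, 6, and 6 without Mmp7), beside 26.2%, 28.6%, and 30.4% of all genes, and for Timp3 below them at Year 2. Without regard to direction, 51.8%, 54.9%, and 59.8% of all genes had no overlap. With the FDR alone, 6, 8, and 8 of the 10 genes passed, beside 38.8%, 41.2%, and 49.2% of all genes.

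**Figure D1:**
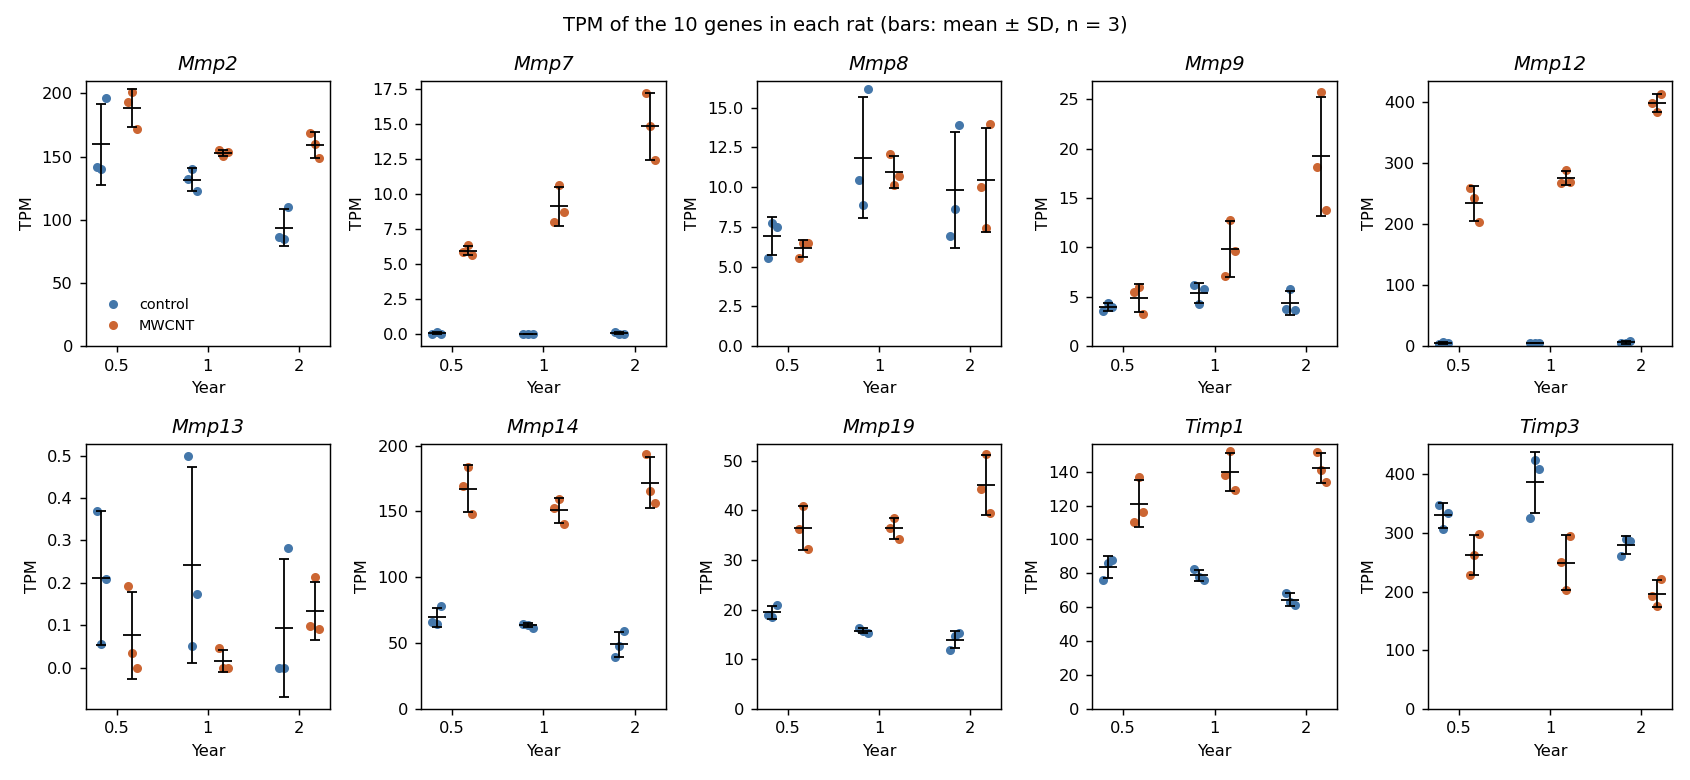
TPM of the 10 genes in each rat by time point, with control rats in blue, MWCNT-treated rats in orange, and bars for the mean and SD of the 3 rats of a group. Each panel has its own linear axis, and the treated rats sit above every control in the panels of Mmp7, Mmp12, Mmp14, Mmp19, and Timp1 and overlap with the controls in that of Mmp8.

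Mmp12, the macrophage metalloelastase, which degrades elastin, had the highest level of the 8 MMP genes in MWCNT-treated rats. In controls it was at 4.03, 6.12, and 4.83 TPM at Year 0.5, at 5.57, 5.32, and 4.48 TPM at Year 1, and at 5.46, 4.38, and 8.91 TPM at Year 2. In treated rats it was at 259, 242, and 203 TPM at Year 0.5, at 268, 289, and 269 TPM at Year 1, and at 399, 385, and 414 TPM at Year 2. The 3 treated groups did not overlap with each other or with any control group, while the 3 control groups overlapped. The log2 fold change against the controls of the same time point was 5.71 (SE 0.16, FDR = 7.84e-07) at Year 0.5, 5.99 (SE 0.12, FDR = 4.31e-08) at Year 1, and 6.22 (SE 0.19, FDR = 1.56e-07) at Year 2. Within treated rats, Mmp12 rose from Year 0.5 to Year 2 by a log2 fold change of 0.85 (SE 0.14, FDR = 0.000614), under the fold limit for a call.

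Mmp7, or matrilysin, a small MMP without a hemopexin domain that epithelial cells are known to produce, was nearly undetected in controls. Over the 9 control rats it had 2 counts, 1 in a rat of Year 0.5 and 1 in a rat of Year 2. Treated rats had 52, 77, and 51 counts at Year 0.5, 73, 113, and 80 at Year 1, and 151, 149, and 115 at Year 2, or a mean of 5.93 ± 0.33, 9.09 ± 1.38, and 14.8 ± 2.39 TPM (SD, n = 3). The ranges of the 3 treated groups were separate and in the order of time. For ratios, counts were scaled to the normalized library sizes of the test. The ratio of treated to control counts was 167 at Year 0.5 (95% interval from counting 29.5 to 6616) and 414 at Year 2 (73.9 to 16397). At Year 1 the gene was at least 93.3-fold higher, computed against 3 counts over the 3 controls. Its fitted fold changes against controls depend on how counts of 0 are handled and are not given. From Year 0.5 to Year 2, it rose within treated rats by a log2 fold change of 1.40 (SE 0.26, FDR = 0.00267).

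Mmp2, or gelatinase A, which cleaves gelatin and type IV collagen and is made mainly by mesenchymal cells, was the most abundant MMP gene in controls. Control rats had 142, 140, and 197 TPM at Year 0.5, 132, 140, and 122 TPM at Year 1, and 86.0, 85.1, and 110 TPM at Year 2. Treated rats had 193, 201, and 172 TPM at Year 0.5, 155, 150, and 153 TPM at Year 1, and 168, 160, and 148 TPM at Year 2. The groups overlapped at Year 0.5 and were separate at Year 1 and Year 2. The log2 fold change was 0.39 (SE 0.13, FDR = 0.0419), 0.45 (SE 0.08, FDR = 0.00182), and 0.98 (SE 0.11, FDR = 8.11e-05) at the 3 time points, in each case under the fold limit. At Year 2 it was just under that limit, and it came to 1.10 without control replicate 3 and to 1.04 without MWCNT replicate 3, which made it a call. Control levels fell from Year 0.5 to Year 2 by 0.76 on the log2 scale (SE 0.12, FDR = 0.00227), while in treated rats the change was -0.16 (SE 0.12, FDR = 0.419).

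Mmp9, or gelatinase B, the gelatinase known from neutrophils, macrophages, and mast cells, had the largest of the called differences in response between time points. Controls ranged from 3.55 to 6.19 TPM over the 3 time points. Treated rats had 5.49, 5.95, and 3.28 TPM at Year 0.5, 7.08, 12.8, and 9.66 TPM at Year 1, and 18.1, 25.7, and 13.8 TPM at Year 2. At Year 0.5 the treated rats overlapped with the controls, and at Year 2 all 3 were above every rat of the other 5 groups. The log2 fold change was 0.46 (SE 0.24, FDR = 0.159) at Year 0.5, 1.12 (SE 0.25, FDR = 0.00683) at Year 1, and 2.35 (SE 0.25, FDR = 6.64e-05) at Year 2. The call at Year 1 was lost without control replicate 2 (0.96) or MWCNT replicate 2 (0.83), with library size as the only scaling (0.98), and with limma on TPM (0.74). Within treated rats, Mmp9 rose from Year 0.5 to Year 2 by a log2 fold change of 2.04 (SE 0.28, FDR = 0.000164).

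Mmp14, or MT1-MMP, is anchored in the cell membrane, where it cuts collagen and activates the proenzyme of Mmp2 together with Timp2. Control rats had 65.8, 64.5, and 77.8 TPM at Year 0.5, 64.6, 64.0, and 61.8 TPM at Year 1, and 39.6, 48.1, and 59.0 TPM at Year 2. Treated rats had 169, 184, and 148 TPM, 153, 159, and 141 TPM, and 194, 165, and 157 TPM at the same time points. Every treated rat was above every control rat, and the 3 treated groups overlapped. Mmp14 was called at each time point, with log2 fold changes of 1.41 (SE 0.10, FDR = 2.6e-05), 1.49 (SE 0.09, FDR = 6.77e-06), and 2.04 (SE 0.14, FDR = 5.02e-06). In controls, the level fell from Year 0.5 to Year 2 by 0.50 on the log2 scale (SE 0.13, FDR = 0.0274), and in treated rats the change was 0.13 (SE 0.12, FDR = 0.551).

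Mmp19, a broadly expressed MMP that acts on basement membrane proteins, followed Mmp14 at a lower level. Its mean in controls was 19.4 ± 1.35, 15.7 ± 0.51, and 14.0 ± 1.79 TPM (SD, n = 3) at Years 0.5, 1, and 2. Treated rats had 36.2, 40.9, and 32.2 TPM at Year 0.5, 36.5, 38.5, and 34.2 TPM at Year 1, and 44.3, 51.5, and 39.5 TPM at Year 2. No treated rat overlapped with a control rat. Log2 fold changes were 1.06 (SE 0.11, FDR = 0.00016), 1.45 (SE 0.10, FDR = 1.67e-05), and 1.91 (SE 0.12, FDR = 3.9e-06). The call at Year 0.5 was near the fold limit and was lost without MWCNT replicate 2 (0.96), with library size as the only scaling (0.95), and with limma on TPM (0.87).

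Mmp8 and Mmp13 are collagenases, which cut fibrillar collagen, and Mmp8 is known as the neutrophil enzyme. Mmp8 had 5.57, 7.74, and 7.48 TPM in controls and 5.54, 6.49, and 6.46 TPM in treated rats at Year 0.5. At Year 1 it had 10.5, 8.91, and 16.2 TPM in controls and 12.1, 10.1, and 10.7 TPM in treated rats, and at Year 2 it had 6.90, 8.61, and 13.9 TPM in controls and 10.004, 7.41, and 14.0 TPM in treated rats. The groups overlapped at each time point, and the log2 fold change was -0.02 (SE 0.17, FDR = 0.939), 0.12 (SE 0.20, FDR = 0.668), and 0.32 (SE 0.28, FDR = 0.375). Mmp13 had 8, 1, and 4 counts in controls and 4, 1, and 0 in treated rats at Year 0.5, and 9, 1, and 4 against 1, 0, and 0 at Year 1. At Year 2 it had 0, 0, and 5 counts in controls and 2, 5, and 2 in treated rats. Its counts summed to 32 in the 9 controls and 15 in the 9 treated rats, and the difference was not tested.

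Timp1, a secreted inhibitor of most MMPs, was higher in treated rats. Control rats had 76.0, 86.3, and 88.1 TPM at Year 0.5, 82.5, 77.6, and 76.1 TPM at Year 1, and 68.6, 63.0, and 61.5 TPM at Year 2. Treated rats had 110, 137, and 116 TPM, 138, 152, and 129 TPM, and 152, 141, and 134 TPM at the same time points. All treated rats were above all control rats. Against the controls, the log2 fold change was 0.69 (SE 0.11, FDR = 0.00113) at Year 0.5, under the fold limit, 1.07 (SE 0.11, FDR = 0.000109) at Year 1, and 1.36 (SE 0.10, FDR = 7.52e-06) at Year 2. The call at Year 1 was lost without MWCNT replicate 2 (0.95), with library size as the only scaling (0.93), and with limma on TPM (0.82).

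Timp3, the inhibitor that stays bound to the matrix and also blocks ADAM proteases, was the most abundant of the 10 genes in controls. Control rats had 348, 307, and 335 TPM at Year 0.5, 326, 424, and 409 TPM at Year 1, and 262, 289, and 286 TPM at Year 2. Treated rats had 228, 262, and 297 TPM, 251, 202, and 295 TPM, and 192, 175, and 221 TPM. At each time point the TPM of the treated rats lay below those of the controls, whereas on the normalized count scale of the test the groups overlapped at Year 0.5 and Year 1. The log2 fold change was -0.19 (SE 0.10, FDR = 0.155), -0.40 (SE 0.13, FDR = 0.0317), and -0.29 (SE 0.09, FDR = 0.0219), none near the fold limit. With library size as the only scaling it was -0.29, -0.53, and -0.46, a scaling that moved the median of all genes by -0.10, -0.13, and -0.17.

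**Figure D2:**
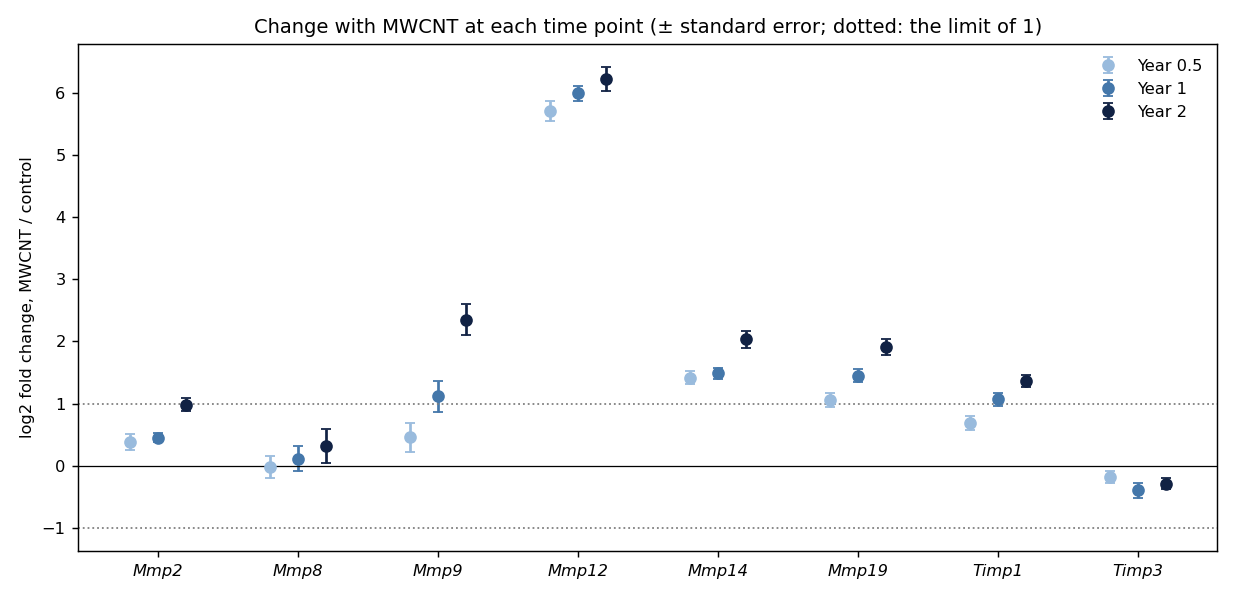
Log2 fold change of MWCNT-treated against control rats for the 8 tested genes other than Mmp7, with the standard error, at Years 0.5, 1, and 2 from light to dark, and dotted lines at the limits of 1 and -1. Mmp12 lies between 5.71 and 6.22, Mmp9 moves from 0.46 to 2.35, and Timp3 is below 0 at each time point.

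Macrophage markers moved with these changes. Of 9 macrophage markers, 7, 6, and 8 were called higher at Years 0.5, 1, and 2, and their summed level was 380 to 481 TPM in controls, against 1209 to 1479, 1421 to 1775, and 2143 to 2331 TPM in treated rats. One of those called, Marco, was at 0.03, 0.20, and 0.28 TPM in controls, passed the filter only through the treated rats, and so had to differ. Over all genes, 6.07%, 6.13%, and 8.17% were called higher, and 9.1%, 10.2%, and 16.4% in either direction. None of the 9 was at 0 in all rats. Of 8 neutrophil markers 6 were tested, of which 1, 2, and 2 were called higher (S100a9, joined by S100a8 at Year 1 and Year 2), and Mpo and Ltf, which mark neutrophil granules, had 10 counts or fewer. Fibroblast markers summed to 769 to 1148 TPM in controls and to 430 to 684 TPM in treated rats, with Dcn called lower at Year 2 and no other call among 6 by edgeR or DESeq2, although 5, 5, and 4 had an unadjusted p below 0.05. Of 6 alveolar type 2 cell markers, 2, 2, and 4 were called higher. Of 4 endothelial markers, 1, 0, and 3 were called lower by both tools (all 4 had an unadjusted p below 0.05 at each time point), and they summed to 1771 to 2335 TPM in controls and 575 to 1305 TPM in treated rats. Of 5 airway epithelium markers, 1, 2, and 3 were called lower, and they summed to 18074 to 32825 TPM in controls and 10473 to 15524 TPM in treated rats. Of the heart muscle markers, 5, 1, and 1 of 6 were called lower at the 3 time points, and of the mesothelial markers none of 4 was called by edgeR or DESeq2 (0, 3, and 3 had an unadjusted p below 0.05). Of the alveolar type 1 markers, 1 of 5 was called lower at Year 1 and at Year 2, and 5 of 5 had an unadjusted p below 0.05 at Year 0.5 without a call by either tool. The part of these cell types in the MMP and TIMP levels was not tested.

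The 8 MMP genes together had 265 ± 41.1, 233 ± 6.56, and 177 ± 30.3 TPM (SD, n = 3) in controls at Years 0.5, 1, and 2, and 644 ± 63.9, 645 ± 22.5, and 820 ± 27.2 TPM in treated rats. The plot of summed TPM shows these sums beside those of the 2 inhibitors. Timp1 and Timp3 together had 413 ± 17.7, 465 ± 49.7, and 343 ± 11.7 TPM in controls and 384 ± 40.0, 389 ± 35.5, and 338 ± 19.8 TPM in treated rats. The ratio of the 8 MMP genes to these 2 inhibitors was 0.64, 0.51, and 0.52 in controls and 1.70, 1.67, and 2.43 in treated rats, and no treated rat (lowest 1.38) overlapped with a control rat (highest 0.74). Timp2, which is not among the 10 genes, was the most abundant TIMP gene, at 528 ± 7.43, 527 ± 7.85, and 484 ± 22.9 TPM (SD, n = 3) in controls and 492 ± 15.04, 476 ± 15.7, and 466 ± 4.798 TPM in treated rats. With all 4 TIMP genes in the sum, of which Timp2 made up 53.0% to 58.4% by group mean, the ratio was 0.28, 0.23, and 0.21 in controls and 0.74, 0.75, and 1.02 in treated rats. With all 21 MMP genes of the tables as well, it was 0.44, 0.38, and 0.37 in controls and 0.91, 0.92, and 1.19 in treated rats. The value of the ratio thus depends on the genes summed, and in each version every treated rat was above every control rat.

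The makeup of these sums differed as well. Mmp12 made up 1.92%, 2.19%, and 3.47% of the MMP TPM in controls and 36.4%, 42.6%, and 48.7% in treated rats. The share of Mmp2 was 60.0%, 56.4%, and 53.1% in controls and 29.3%, 23.7%, and 19.4% in treated rats. Timp1 held 20.2%, 17.1%, and 18.8% of the TPM of the 2 inhibitors in controls and 31.7%, 36.3%, and 42.2% in treated rats. Timp3 had the highest mean TPM of the 10 genes in each control group and in treated rats at Year 0.5, and Mmp12 had it in treated rats at Year 1 and Year 2. These sums are of RNA and say nothing of proenzyme activation or of enzyme activity.

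**Figure D3:**
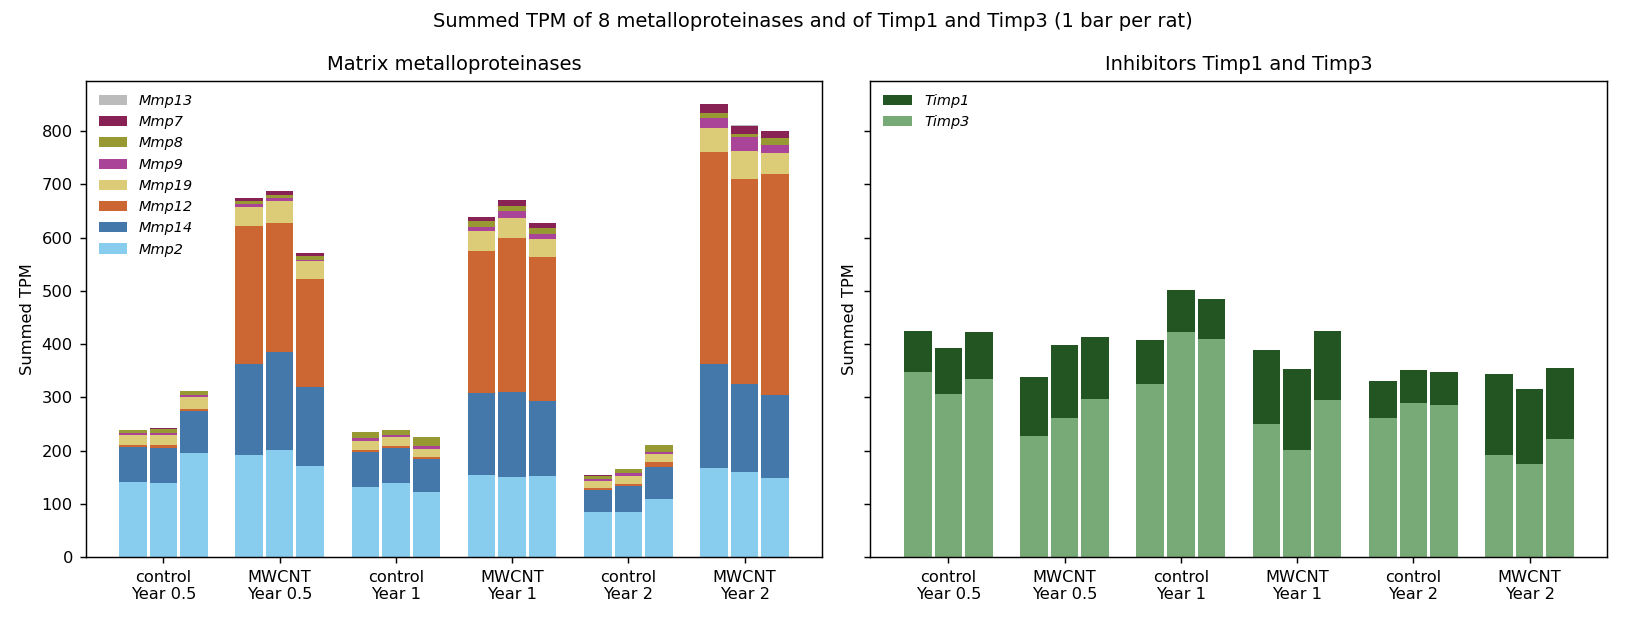
Summed TPM of the 8 MMP genes (left) and of the inhibitor genes Timp1 and Timp3 (right), 1 bar per rat and stacked by gene, in the 6 groups. The MMP bars of treated rats reach 570 to 851 TPM against 154 to 312 TPM in controls, with Mmp12 as the main added layer, and the bars of Timp1 and Timp3, which leave out Timp2, range from 317 to 501 TPM.

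Whether the effect of MWCNT differed between time points was tested as the interaction of treatment and time in 1 model of all 18 rats, called at an FDR below 0.05 alone. From Year 0.5 to Year 2, 3 of the 10 genes were called, all with a larger effect at Year 2, against 1.31% of 14843 genes. The increase in log2 fold change was 1.90 for Mmp9 (SE 0.41, FDR = 0.029), 0.86 for Mmp19 (SE 0.16, FDR = 0.0194), and 0.68 for Timp1 (SE 0.15, FDR = 0.0396). Mmp14 (0.63, SE 0.18, FDR = 0.0885) and Mmp2 (0.60, SE 0.17, FDR = 0.0914) did not pass in edgeR and were called by DESeq2. For Mmp12 the increase was 0.52 (SE 0.26, FDR = 0.393). Leaving out single rats ended the call of Mmp9 in 9 of 12 cases (FDR up to 0.095), of Timp1 in 8 of 12 (FDR up to 0.142), and of Mmp19 in 4 of 12 (FDR up to 0.069). The call of Mmp9 held only without control Year 2 replicate 2, MWCNT Year 0.5 replicate 2, or MWCNT Year 2 replicate 3, and that of Timp1 only without replicate 1 of either control group, MWCNT Year 0.5 replicate 2, or MWCNT Year 2 replicate 3. The call of Mmp19 was lost without control Year 0.5 replicate 3, control Year 2 replicate 1, MWCNT Year 0.5 replicate 3, or MWCNT Year 2 replicate 1. From Year 0.5 to Year 1 edgeR called none of the 10 (2 had an unadjusted p below 0.05, and DESeq2 called 0), and from Year 1 to Year 2 it also called none (4 had an unadjusted p below 0.05, and DESeq2 called Mmp9), beside 0% and 0.478% of genes. Without control Year 2 replicate 3, Mmp2 and Mmp14 were called from Year 1 to Year 2.

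The changes over time within each treatment show which arm moved, and each interaction shares its rats with them. In treated rats, Mmp7 and Mmp9 were called higher at Year 2 than at Year 0.5, against 2.34% of genes, and Mmp12, Mmp8, and Mmp19 passed the FDR alone (13.5% of genes), with log2 fold changes of 0.85, 0.84 (SE 0.26, FDR = 0.0389), and 0.39 (SE 0.11, FDR = 0.0282). In control rats edgeR called none of the 10 between these time points (4 had an unadjusted p below 0.05, DESeq2 called 0), against 0.633% of genes, and Mmp2, Mmp14, and Mmp19 fell at an FDR below 0.05 alone (6.65% of genes), Mmp19 by 0.47 on the log2 scale (SE 0.12, FDR = 0.0303). For Timp1 the change was -0.36 (SE 0.11, FDR = 0.0602) in controls and 0.31 (SE 0.11, FDR = 0.06) in treated rats. From Year 1 to Year 2, Mmp2 (-0.46, SE 0.12, FDR = 0.0281) and Timp3 (-0.44, SE 0.12, FDR = 0.032) fell in controls, and Mmp9 (0.97, SE 0.26, FDR = 0.0368) and Mmp12 (0.56, SE 0.14, FDR = 0.0219) rose in treated rats, at an FDR below 0.05 but under the fold limit (7.93% and 5.94% of genes). None was called in edgeR in these 2 comparisons (0.499% and 0.903% of genes were, 4 and 5 of the members had an unadjusted p below 0.05, and DESeq2 called 0 in both). In treated rats, Mmp9 was called there without MWCNT Year 1 replicate 2 or Year 2 replicate 3, and Mmp8 was called from Year 0.5 to Year 2 without MWCNT Year 2 replicate 2. From Year 0.5 to Year 1 none was called in edgeR in controls (3 had an unadjusted p below 0.05, DESeq2 called 0) or in treated rats (5 had an unadjusted p below 0.05, DESeq2 called Mmp9), beside 0% and 0.0472% of genes.

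**Figure D4:**
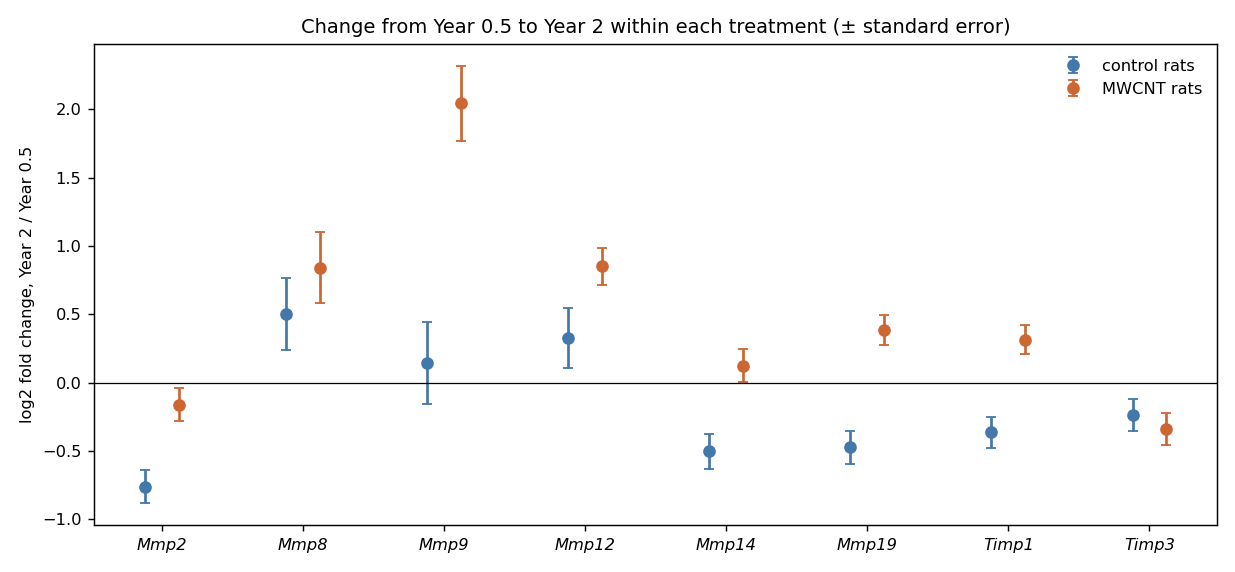
Log2 fold change from Year 0.5 to Year 2 within control rats (blue) and within MWCNT-treated rats (orange), with the standard error, for the 8 tested genes other than Mmp7. Mmp2, Mmp14, Mmp19, and Timp1 lie below 0 in controls, at -0.76 to -0.36, and the treated values of Mmp9 (2.04) and Mmp12 (0.85) are the highest.

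Across the 18 rats, the genes differed in which other genes they resembled most, by Pearson correlation of log2 CPM values against 14843 genes. These correlations describe rats of 6 groups that share a treatment contrast and are given without a test. Mmp12 was most like Ctsk, the collagenase and elastase cathepsin K (r = 0.994), and Capg, an actin-capping protein of macrophages (r = 0.994). Mmp7 was most like Ifi30, a lysosomal thiol reductase (r = 0.995), and Fabp5, a fatty acid-binding protein (r = 0.995). Mmp14 was most like Atp6v1a, a subunit of the vacuolar proton pump (r = 0.996), and Cd44, a hyaluronan receptor (r = 0.993). Mmp19 was most like Fabp4, a fatty acid-binding protein of macrophages and fat cells (r = 0.989), and Fh, the fumarate hydratase (r = 0.987). Timp1 was most like P4hb, a disulfide isomerase and subunit of collagen prolyl hydroxylase (r = 0.988), and Tkt, the transketolase (r = 0.984).

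The other genes had different neighbors. Mmp2 was most like Col3a1, a fibrillar collagen chain (r = 0.956), and Pros1, or protein S (r = 0.954). Mmp8 was most like Csf3r (r = 0.828) and Cxcr2 (r = 0.814), both receptors of neutrophils. Neither receptor was called at any time point. Timp3 was most like Hecw2 (r = 0.948), a ubiquitin ligase, and Pik3r1 (r = 0.943), a subunit of phosphoinositide 3-kinase. Among the members, Mmp7 and Mmp12 (r = 0.994, with Mmp7 near 0 counts in every control) and Mmp14 and Mmp19 (r = 0.985) were most alike, and Mmp8 had no correlation above 0.443 with another member.

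Mmp9 was most like Tpsb2 (r = 0.945) and Tpsab1 (r = 0.944), which encode mast cell tryptases. Tpsb2 was at 0.883, 1.503, and 1.344 TPM in controls and 3.55 ± 3.27, 13.5 ± 6.85, and 84.3 ± 6.33 TPM (SD, n = 3) in treated rats at Years 0.5, 1, and 2. Tpsab1 was at 4.13 ± 4.65, 14.1 ± 8.20, and 92.9 ± 15.2 TPM in treated rats. How reads shared by these paralogs were counted was not given in the sources used here. The part of mast cells in the Mmp9 level was not tested.

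The chromosome 8 cluster held 10 MMP genes in a row over 378 kb of Rnor_6.0, from Mmp13 to Mmp7. Of these, Mmp12, Mmp8, and Mmp7 had more than 9 counts in a rat. The 6 that are not members, Mmp1b, Mmp3, Mmp1, Mmp10, Mmp27, and Mmp20, had at most 3 counts each over all 18 rats. In this row the strongly responding Mmp12 lay between Mmp13 and Mmp1b, which were near 0, and Mmp8, whose groups overlapped, lay between Mmp10 and Mmp27. In the RefSeq windows of 250 bases, 7 of the 10 genes held an AP-1 match and 8 a TATA match, including genes without counts such as Mmp1.

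**Figure D5:**
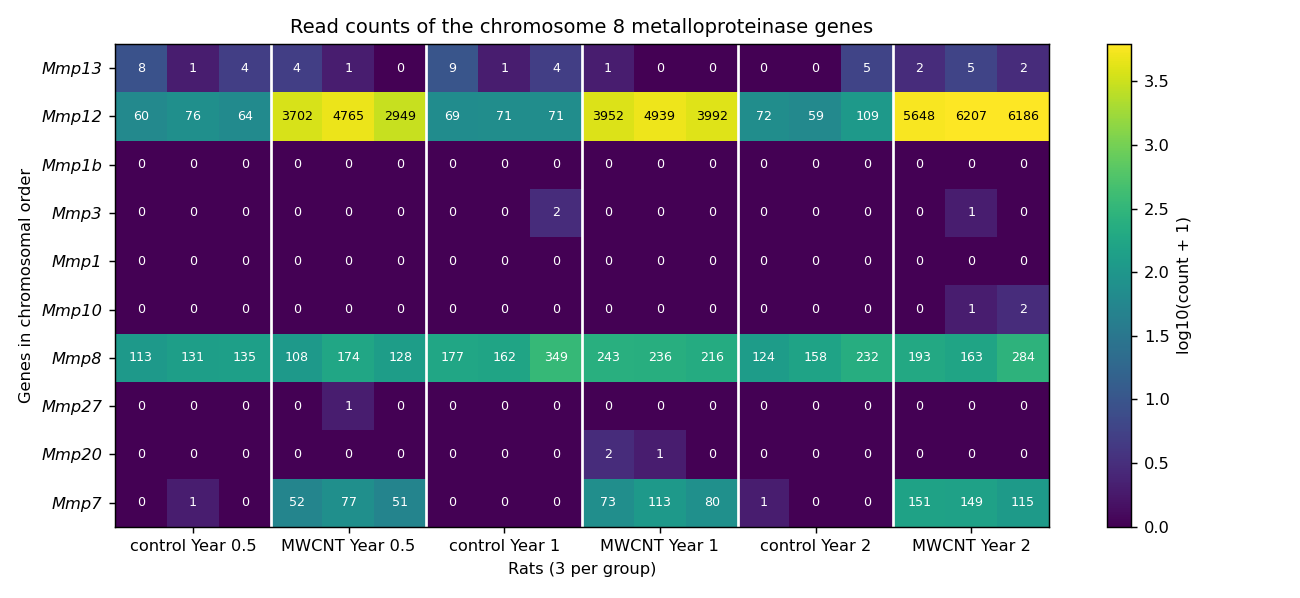
Read counts of the 10 neighboring MMP genes in chromosomal order (rows) in each of the 18 rats (columns, 3 per group), colored by log10(count + 1), with the count printed in each cell. Mmp12 and Mmp7 are high in treated rats alone, Mmp8 is at a like level in all groups, and the remaining rows hold 0 to 9 counts.

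Outside the 10 genes, other MMPs changed in both directions. Of 14 other MMP genes listed, 12 were in the tables and 6 had enough counts to be tested. None of the 6 was called by edgeR at any time point (4, 3, and 4 had an unadjusted p below 0.05, and DESeq2 called 0), and their median log2 fold change was -0.31, -0.12, and -0.34. Over all genes 9.1%, 10.2%, and 16.4% were called, so a count of 0 among 6 does not set these genes apart. Mmp15, a membrane-type MMP, was at 0.30, 0.37, and 0.51, and Mmp17, another membrane-type MMP, at -0.88, -0.40, and -0.81, each with an FDR below 0.05 and no overlap between groups. Mmp16 was at -0.50, -0.36, and -0.40, each with an FDR below 0.05, and Mmp23 was higher at Year 2 (0.56, FDR = 0.0112).

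Among 5 other inhibitors, A2m, the alpha-2-macroglobulin that traps proteases, was called higher at each time point. It was at 0.77, 0.68, and 0.23 TPM in controls and at 13.1 ± 5.31, 11.4 ± 2.15, and 18.3 ± 2.98 TPM (SD, n = 3) in treated rats. At Year 2, with controls near 0 (SD 0.20 TPM), A2m passed the filter on low counts only through the treated rats and so had to differ. Timp4 was called lower at Year 1 (-1.49, SE 0.35, FDR = 0.00885), and Tfpi2, a matrix-bound protease inhibitor, higher at Year 1 (1.09, SE 0.33, FDR = 0.0279). Reck, a membrane-anchored MMP inhibitor, had log2 fold changes of -0.89, -0.97, and -0.97, with an FDR of at most 0.000164, just under the fold limit. For Timp2, the partner of Mmp14, the log2 fold change was 0.04, 0.09, and 0.16, with an FDR from 0.0805 to 0.597. On the normalized count scale of the test, its treated rats lay above the controls without overlap at Year 1 and Year 2. Its mean TPM was instead lower in treated rats at each time point, so that its direction depended on the scale.

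Of 8 tested activators, docking partners, and inducers of MMPs at each time point, 4 were called, all higher: Plau and Plaur (urokinase and its receptor, which start the plasmin cascade that activates pro-MMPs), Cd44 (a docking site for Mmp9), and Lcn2 (lipocalin 2, which binds Mmp9). Plau was at 1.27, 1.60, and 1.86, and Cd44 was close to the limit at Year 1 (1.01, SE 0.08, FDR = 3.7e-05). Furin, which cleaves the propeptide of Mmp14, was at 0.29, 0.31, and 0.32, with an FDR of at most 0.00997. Pcsk6, another proprotein convertase, was at -0.86, -0.74, and -0.80, with an FDR of at most 0.00376 and no overlap between groups. Plat, the tissue plasminogen activator, was at -0.44 at Year 1 (SE 0.09, FDR = 0.00523), and at Year 0.5 (-0.17) and Year 2 (0.06) its groups overlapped. Of 13 substrates, Spp1 (osteopontin) was called higher at each time point, joined by Fn1 (fibronectin, 1.49, SE 0.08, FDR = 2.1e-06) and Col1a1 (a chain of type I collagen, 1.22, SE 0.10, FDR = 1.51e-05) at Year 2. Over all genes, 9.1%, 10.2%, and 16.4% were called at the 3 time points. With the FDR alone, 9, 5, and 13 of the 13 substrates passed, beside 38.8%, 41.2%, and 49.2% of all genes. At Year 2 all 13 were higher without overlap on the normalized count scale of the test. Over all genes, 30.4% were higher without overlap, and 59.8% had no overlap in either direction. In TPM the Year 2 groups were close for Cdh1 (121 ± 8.40 in controls, 126 ± 8.33 in treated rats) and Eln (275 ± 34.6 and 292 ± 22.7; SD, n = 3). Lamb1 was lower at Year 1 (-0.36). For Eln, the elastin gene and the substrate of Mmp12, the log2 fold change was 0.62, 0.24, and 0.30, with FDR = 0.00308, 0.17, and 0.0372.

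Among 6 other elastin- and collagen-degrading proteases, Ctsk and Ctss, lysosomal cathepsins, were called higher at each time point, Ctsk at 4.36, 4.49, and 4.71 and Ctss at 1.67, 1.68, and 2.06. The neutrophil elastase gene Elane had 2 counts at most in a rat. Of 10 genes of AP-1 and PEA3 transcription factors, 1 was called, Fosb at Year 1 (1.08, SE 0.26, FDR = 0.0104), where 10.2% of all genes were called. At Year 0.5 and Year 2 edgeR called 0 (3 and 5 had an unadjusted p below 0.05, DESeq2 called 0 at both). With the FDR alone, Jun was lower at each time point (-0.75, -0.49, and -0.65) and Etv4 at Year 0.5 and Year 2 (-0.56 and -0.82). Etv1 at Year 1 (-0.32) and Jund at Year 2 (-0.37) were also lower. Etv5 at Year 0.5 (0.24) and Fos at Year 2 (0.74) were higher.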

How the data were processed

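Lung RNA of 18 rats was sequenced from NEBNext Ultra II libraries. Reads were mapped to the rat genome (Rnor_6.0 in the submitters' processing notes) with CLC Genomics Workbench, and the authors deposited whole-number read counts per gene and TPM values per rat for each time point. The handling of multi-mapping reads and of strand was not given in the sources used here. The deposited RPKM and normalized CPM columns and the authors' comparison columns (fold changes and p-values) were not used.

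Groups were taken from the sample titles. Counts were tested with edgeR 4.0.16 (filterByExpr with a minimum count of 10, TMM, quasi-likelihood test, Benjamini-Hochberg FDR over all genes tested) in R 4.3.3, the 6 rats of a time point at a time, and in 1 model of 18 rats for interactions and time. Alternatives were DESeq2 1.42.0, limma 3.58.1 on log2(TPM + 1), other filters and scalings, the replicate number as a block, and leaving out each rat. Interactions were called without a limit on fold change, because the study gave no such test. The interval of a count ratio is an exact 95% interval and covers counting error only.

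All 10 members and the fixed pathway and cell marker lists were chosen with earlier results of these data known. From the lists, genes are named where called or of known direct relation to a member, and the 2 most similar genes are named for each member. Several of these names were picked with their values in view. The scripts were tested on simulated data.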

Additional observations from a re-analysis of the deposited data

Results flagged for a closer look

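By the interaction test in edgeR, 3 genes had an effect of MWCNT that differed between Year 0.5 and Year 2 at an FDR below 0.05. The difference in log2 fold change was 1.90 for Mmp9, 0.86 for Mmp19, and 0.68 for Timp1, each larger at Year 2. Leaving out 1 rat ended these calls in 9, 4, and 8 of 12 cases. No outlier test was applied within groups of 3 rats.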

How the results depend on the processing

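The counts of called genes at each time point moved by at most 1.5 times under every alternative run. The range when 1 rat was left out was 3 to 4 at Year 0.5, 4 to 6 at Year 1, and 6 to 7 at Year 2. For the interaction from Year 0.5 to Year 2, DESeq2 called 5 and the range without 1 rat was 0 to 3. For that from Year 1 to Year 2, DESeq2 called 1 and the range was 0 to 2. With the FDR alone, 3 genes passed in controls and 5 in treated rats from Year 0.5 to Year 2, and 2 in each from Year 1 to Year 2. In treated rats, a minimum of 10 counts in every rat left 1 call from Year 0.5 to Year 2, since Mmp7 was no longer tested. Without 1 rat, 2 to 3 were called there and 0 to 1 from Year 1 to Year 2, and DESeq2 called 1 from Year 0.5 to Year 1. The sign of Mmp8, which was not called, turned to 0.072 at Year 0.5 (range without 1 rat -0.16 to 0.072), and at Year 1 to -0.019 with library size as the only scaling, to -0.066 with limma on TPM, and to -0.062 without 1 rat (range -0.062 to 0.40). The cause of these changes was not tested.

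The same replicate numbers recur in all groups but did not pair the rats. The deviations of rats with the same number had a correlation of -0.15 to 0.11 (9 pairs), and of rats with different numbers -0.16 to 0.17 (18 pairs). With the replicate number as a block, the interaction from Year 0.5 to Year 2 called 0 of the genes (FDR = 0.0539 for Mmp9, 0.0677 for Mmp19, and 0.0539 for Timp1), and it ended no call at a time point.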
